A study of Mus musculus with 8 samples.

Results

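The genes described here are 41 genes of the NRF2 pathway and of cellular defence against oxidants, taken by symbol from the 23337 gene symbols of each deposited file. All 41 symbols were found. RNA sequencing measured their mRNA in MOE cells, an epithelial cell line from the oviduct of FVB mice (the oviduct is the mouse counterpart of the fallopian tube). One group of 4 libraries came from cells plated on 2D collagen and the other 4 from cells on 3D collagen gels. Both groups spent 6 h in the usual MOE medium from which EGF was left out, and the labels name no transgene, deletion or drug in either group. It is a single cell line. The labels do not state that replicates were separate cultures, so every p-value describes only how these libraries vary, and that variation may be technical.

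NRF2, encoded by Nfe2l2, is a transcription factor that in resting cells is bound by KEAP1 and sent to the proteasome. When oxidants or electrophiles modify KEAP1, or when p62 (Sqstm1) sequesters it, NRF2 accumulates, pairs with a small MAF protein and binds antioxidant response elements near its target genes. The targets make glutathione, reduce thioredoxin and peroxides, supply NADPH, detoxify quinones and electrophiles, and handle haem and iron.

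Cells on 3D collagen had more mRNA for NRF2 itself and for 5 other genes of the group. These were the cystine importer gene Slc7a11, the glutathione synthesis gene Gclm, the quinone reductase gene Nqo1, the glutathione transferase gene Gsta4 and the catalase gene Cat. Every one of these calls, with that of Nfe2l2, hung on single libraries, and none was kept without 3D replicate 1 or without 3D replicate 2. The mRNA of KEAP1, of the ferritins, of the superoxide dismutases, of the glutathione peroxidases and of the pentose phosphate enzymes did not pass the test. A change in a bulk library can come from more or fewer cells of one type, or from more or less RNA per cell. These cannot be told apart.

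The antioxidant response element has the core TGACNNNGC, in which N is any base. The 250 bases before each RefSeq start site (GRCm38.p6, the build also called mm10) were searched for it on both strands, for the 34 members with a promoter sequence. It occurred in the promoters of 7 of these 34 genes (20.6%), against 11.5% of all 27025 genes in the RefSeq table and 14.3% of the 8488 tested genes found there. The 7 were Nfe2l2, Gclm, Txnrd1, Prdx1, G6pdx, Mgst1 and Sod1, so 2 of the 5 called genes with a promoter sequence were among them. In Txnrd1, G6pdx and Mgst1 the match lay inside the span of the GENCODE gene, which begins before the RefSeq start used. Such matches were not taken out of any of these shares. The form TGACTCAGC, one of the sequences covered by the core, occurred only in Prdx1 among the members and in 0.426% of all genes. No RefSeq promoter was used for Gclc, Gsr, Prdx6, Gsta4, Abcc1, Sod3 and Hmox1. A match describes letters in a window and does not show a site in use, and elements further from the start were not searched. The promoters of Nfe2l2 (chr2:75704664-75704913, minus strand), Gclm (chr3:122245307-122245556, plus strand) and Prdx1 (chr4:116685349-116685543, plus strand) are shown because Nfe2l2 and Gclm are the called genes in which the core was found and Prdx1 alone held the form TGACTCAGC. Each is read 5′ to 3′ on the gene's strand with the core in capitals, and that of Prdx1 stops where the first GENCODE exon begins.
Nfe2l2: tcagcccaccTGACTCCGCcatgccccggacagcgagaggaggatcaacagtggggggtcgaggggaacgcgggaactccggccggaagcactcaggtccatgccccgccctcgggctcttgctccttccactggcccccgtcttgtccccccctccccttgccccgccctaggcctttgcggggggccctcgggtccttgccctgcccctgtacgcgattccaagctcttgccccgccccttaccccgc
Gclm: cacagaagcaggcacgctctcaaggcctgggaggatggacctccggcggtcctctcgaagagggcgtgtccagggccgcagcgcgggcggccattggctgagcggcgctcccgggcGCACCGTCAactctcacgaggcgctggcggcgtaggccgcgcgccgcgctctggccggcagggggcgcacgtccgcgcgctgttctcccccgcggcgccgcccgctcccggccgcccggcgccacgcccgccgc
Prdx1: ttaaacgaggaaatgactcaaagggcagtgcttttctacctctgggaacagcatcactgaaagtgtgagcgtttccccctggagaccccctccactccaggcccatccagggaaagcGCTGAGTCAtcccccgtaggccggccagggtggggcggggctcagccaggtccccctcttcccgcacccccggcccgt
In Nfe2l2 the core begins 240 bases before the RefSeq start and lies on the gene's strand (TGACTCCGC), within a region that an exon of the antisense gene model E030042O20Rik also covers. In Gclm and Prdx1 it lies on the opposite strand, so the capitals show its complement (TGACGGTGC and TGACTCAGC when read on that strand), beginning 134 and 133 bases before the start.

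Each library held between 15692699 and 25862036 recovered reads and had at least 1 read in between 14064 and 14598 genes. Keratins Krt7, Krt8, Krt18 and Krt19 and the Müllerian factor Pax8 (7427 to 11570 normalized counts) were abundant, whereas the epithelial adhesion gene Epcam reached at most 29.9 and Cldn3 at most 7.17. The oviduct glycoprotein gene Ovgp1 reached at most 27.2. Krt8 was called lower on 3D collagen (log2 fold change −0.76, limma adjusted p = 0.0397). The 4 ciliated-cell genes summed to 63.3 to 89.9 CPM (reads scaled to a common library total) on 2D and 17.9 to 83.3 CPM on 3D collagen. None of them was called. Foxj1 had 1009 to 1843 normalized counts on 2D and 161 to 1028 on 3D collagen (log2 fold change −1.70, limma adjusted p = 0.0706). Log2 fold changes of Rsph1 and Tppp3 were 0.44 and −0.39, and Ccdc39 was too low to be tested. The part of Krt8 or of these ciliated-cell genes in the results was not tested. Leukocyte genes summed to 20.8 to 39.7 CPM and endothelial genes to 14.2 to 38.9 CPM over the 8 libraries, and 4 erythroid genes were at 0 in all of them. Most of the leukocyte sum came from Cd68 (135 to 560 normalized counts) and Csf1r (127 to 433). Kdr (272 to 702) made up most of the endothelial sum, and the other genes of both lists reached at most 17.9. Log2 fold changes of Cd68, Csf1r and Kdr were 0.73, −0.92 and 0.07, and none was called. The 6 fibroblast and stroma genes summed to 3.00 to 19.3 CPM on 2D and 4.02 to 16.7 CPM on 3D collagen. Among them Pdgfra was called higher, at 2.37 to 7.35 normalized counts on 2D and 14.9 to 19.3 on 3D collagen (log2 fold change 1.73, limma adjusted p = 0.0340). Col1a1 and Dcn had log2 fold changes of −0.73 and 0.94 and were not called. Pdgfrb, Col1a2 and Lum were too low to be tested. The part of Pdgfra in the results was not tested. Summed over 10 liver genes the libraries held 0.217 to 29.8 CPM, and over 9 intestine genes 3.48 to 14.6 CPM. The intestine sum was highest in 2D replicate 2 (14.6 CPM), 3D replicate 2 (11.5) and 3D replicate 1 (10.4). The liver sum was highest in 3D replicate 1 (29.8 CPM) and 2D replicate 2 (24.5), followed by 2D replicate 3 (8.51) and 3D replicate 2 (6.55). In 3D replicates 3 and 4 both sums were below those of every 2D library. The libraries numbered 4 stood apart from the others of their group and were closer to each other, with a correlation of 0.81 between their deviations from the group means across genes.

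Expression was tested with limma on log2(normalized count + 1) over 11820 genes, with p-values adjusted by the Benjamini-Hochberg method over all of them and a threshold of 0.05. A normalized count is a gene's reads divided by the size factor of its library, and a log2 fold change is 3D over 2D collagen on that log2 scale. All 41 members passed the filter on low values. The members were chosen with earlier results of these data known, so their shares and medians below are descriptions and not a test of the group. Of the 41 members 6 were called higher (14.6%), where 2.33% of all genes tested were. No member was called lower, where 3.39% of all genes tested were. Without adjustment 12 members had p under 0.05 and a higher value and 0 a lower one, against 11.7% and 12.6% of all genes tested. On the recovered reads edgeR called 6 members higher and 0 lower, against 2.72% and 3.18% of all genes. DESeq2 called 9 higher and 0 lower, against 5.99% and 7.37%. In 7 members (17.1%) every 3D library exceeded every 2D library, against 8.05% of all genes tested, and in 0 members every 3D library was below, against 10.4%. The median log2 fold change was 0.20 over the members and 0.02 over all genes tested, and 29 of the 41 were above 0. Another scaling, by library size alone, moved the median of all genes to 0.19 and that of the members to 0.38, with the members' median above that of all genes under both scalings.

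**Figure D1:**
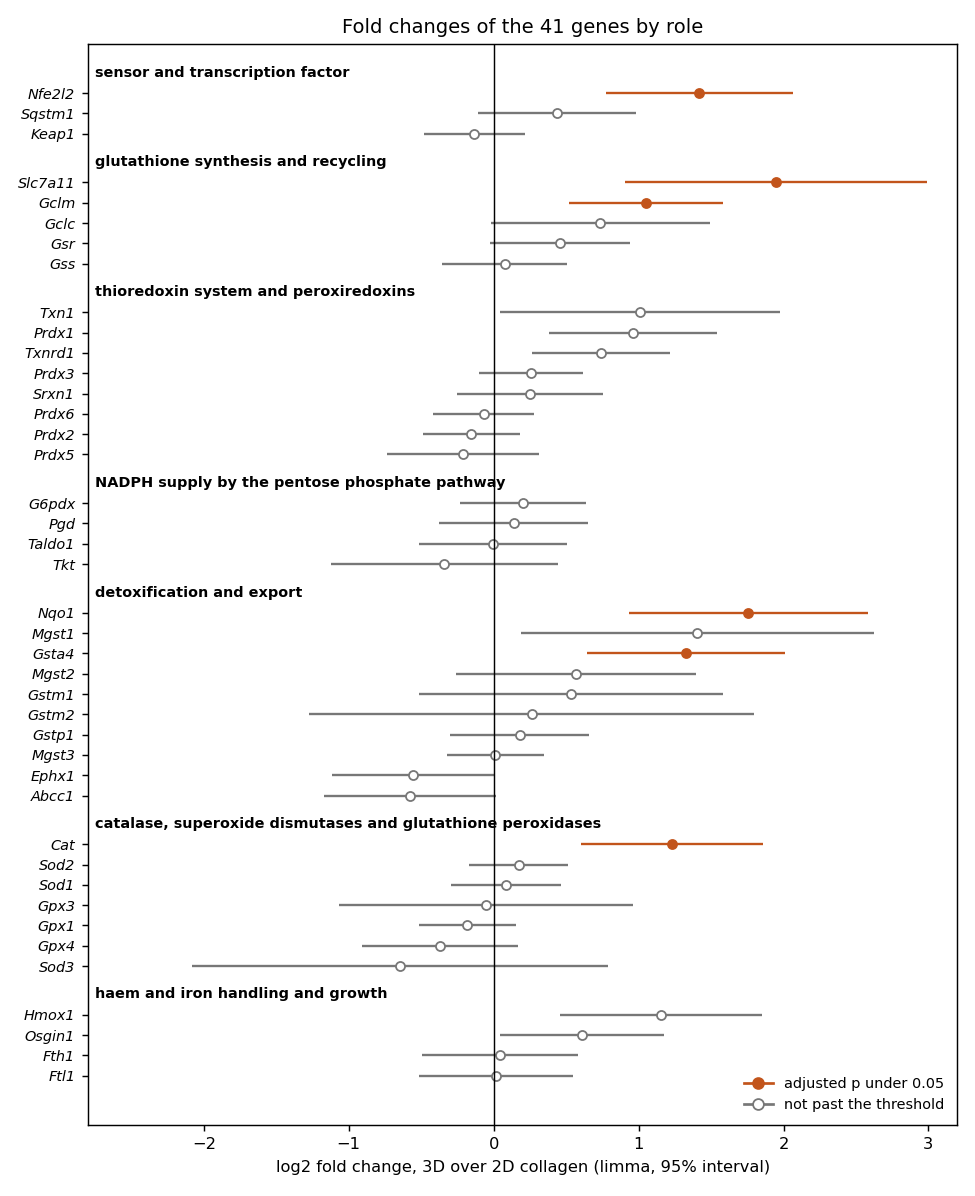
Log2 fold change of each of the 41 genes, 3D over 2D collagen, with its 95% interval from limma (n = 4 libraries per group), arranged by role and, within a role, by size. Filled orange points are the 6 genes with an adjusted p under 0.05, from Gclm at 1.05 to Slc7a11 at 1.95, and open grey points are the 35 that did not pass.

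Of the 3 genes that sense oxidants and carry the signal, Nfe2l2 rose. It is on chromosome 2 (75675513 to 75704641, mm10, minus strand). Nfe2l2 had 2667, 1123, 2306 and 1930 normalized counts in 2D replicates 1 to 4 and 6197, 6432, 4553 and 3771 in 3D replicates 1 to 4. Every 3D library was above every 2D library, and 2D replicate 2 was the lowest of the 8. The mean rose from 2006 ± 661 to 5238 ± 1286 (SD, n = 4 per group), or 1.42 on the log2 scale (SE 0.29, adjusted p = 0.0247 in limma). Without 2D replicate 4, 3D replicate 1, 3D replicate 2 or 3D replicate 3 the limma adjusted p was 0.0507 to 0.0816, with a log2 fold change of at least 1.16 after any single library was left out.

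Keap1, whose product holds NRF2 in check, is on chromosome 9 (21229730 to 21239361). Its normalized counts were 1434, 2244, 1785 and 1886 in the 2D libraries and 1725, 1699, 1551 and 1647 in the 3D libraries. The 3D values lay within the range of the 2D values. The 95% interval of its log2 fold change ran from −0.48 to 0.22 (limma adjusted p = 0.645), and the sign of the estimate turned with library size as the only scaling (0.04) and with the GC trends removed, with or without the replicate number as a block (0.09 in both). An antisense gene model, Gm16754, covers 10.9% of the exonic bases of Keap1. Sqstm1 encodes p62, a selective autophagy receptor that binds KEAP1 and is itself an NRF2 target. Its normalized counts were 42476, 80124, 55523 and 64101 on 2D and 98643, 92897, 75726 and 58746 on 3D collagen, so the groups overlapped. The log2 fold change was 0.44 (95% interval −0.11 to 0.98), and the antisense gene Mrnip covers 17.3% of its exonic bases.

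**Figure D2:**
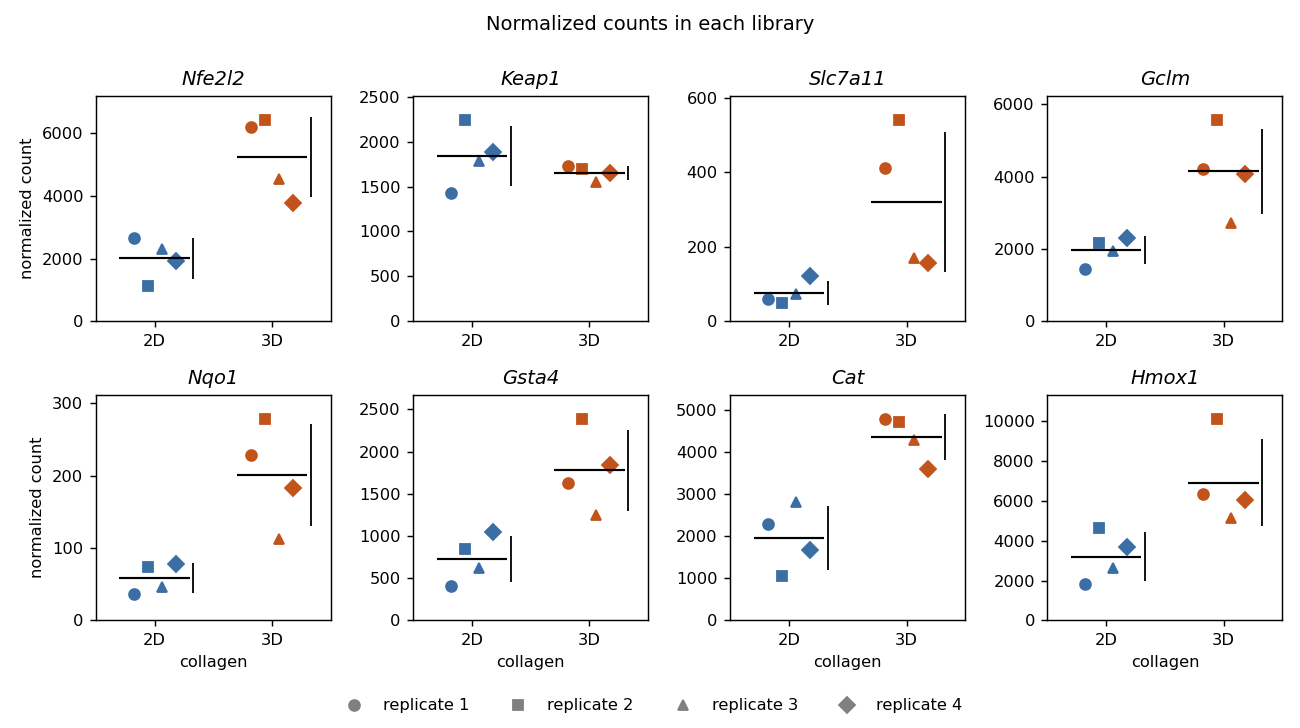
Normalized counts of 8 genes in each library on 2D (blue) and 3D (orange) collagen, with the marker shape giving the replicate number, the horizontal line the mean and the vertical bar 1 SD either way (n = 4). The groups do not overlap in Nfe2l2, Slc7a11, Gclm, Nqo1, Gsta4, Cat and Hmox1, and they overlap in Keap1.

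Glutathione, the main small thiol of the cell, is made from cystine brought in by the xCT antiporter (Slc7a11), by glutamate-cysteine ligase (catalytic subunit Gclc, modifier subunit Gclm) and by glutathione synthetase (Gss), and it is reduced again by glutathione reductase (Gsr). Of these 5 genes Slc7a11 and Gclm rose. The 5 log2 fold changes ran from 0.07 to 1.95, with a median of 0.74.

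Slc7a11 (chromosome 3, 49892526 to 50443614) had 60.4, 47.8, 72.8 and 121 normalized counts on 2D collagen. On 3D collagen it had 410, 540, 169 and 157. Each 3D library exceeded all 2D libraries, and 3D replicates 1 and 2 were more than 2 times as high as 3D replicates 3 and 4. On the log2 scale the increase was 1.95 (SE 0.46, adjusted p = 0.0425 in limma). The call was kept only without 2D replicate 4 or 3D replicate 4. After any other library was left out the limma adjusted p was 0.0691 to 0.115. After a trend with GC content was removed from each library it was 0.0782.

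Gclm (chromosome 3, 122245557 to 122270732) had 1443, 2169, 1938 and 2314 normalized counts on 2D and 4204, 5571, 2720 and 4077 on 3D collagen. The groups did not overlap, and 3D replicate 3 was the nearest to the 2D libraries. On the log2 scale Gclm rose by 1.05 (SE 0.24, adjusted p = 0.0340 in limma). With the GC trends removed it was 0.80 (limma adjusted p = 0.195), and leaving out 2D replicate 1 or 3 or 3D replicate 1, 2 or 4 gave 0.0633 to 0.0976.

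Gclc, which carries the active site of the same ligase, had 5588, 5185, 3979 and 3443 normalized counts on 2D and 10450, 11578, 6432 and 3937 on 3D collagen. The first 3 of these 3D values were above every 2D value, and 3D replicate 4 lay among the 2D libraries. Its log2 fold change was 0.74 (95% interval −0.02 to 1.49, limma adjusted p = 0.216). For Gsr the log2 fold change was 0.46 (95% interval −0.03 to 0.94) and for Gss 0.07 (95% interval −0.36 to 0.51). Neither passed the test.

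Thioredoxin (Txn1) passes electrons from thioredoxin reductase (Txnrd1) to the peroxiredoxins, which remove peroxides, and sulfiredoxin (Srxn1) repairs over-oxidised peroxiredoxins. None of the 8 genes of this system passed the threshold, and 3 of them (Txn1, Txnrd1 and Prdx1) had an unadjusted limma p under 0.05. edgeR also called 0 of the 8, and DESeq2 called Txnrd1 and Prdx1.

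Txnrd1 had 9009, 8219, 8532 and 12104 normalized counts on 2D and 12000, 20298, 13523 and 18112 on 3D collagen. The groups overlapped by 2D replicate 4 and 3D replicate 1, whose values nearly coincided. Its log2 fold change was 0.74 (95% interval 0.27 to 1.22, limma adjusted p = 0.0718). Prdx1, a peroxiredoxin of the cytosol and nucleus, had 6465, 4405, 8197 and 5459 on 2D and 16563, 10571, 12913 and 8108 on 3D collagen. The overlap was between 2D replicate 3 and 3D replicate 4. Its log2 fold change was 0.96 (95% interval 0.38 to 1.54, limma adjusted p = 0.0609). With library size or upper-quartile factors as the scaling limma called it (adjusted p = 0.0366 and 0.0474), and with the GC trends removed its adjusted p was 0.181.

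Txn1 ranged from 1008 to 3424 normalized counts on 2D and from 2478 to 7986 on 3D collagen, with the highest value in 3D replicate 4. Its interval was wide (log2 fold change 1.01, 95% interval 0.04 to 1.97, limma adjusted p = 0.189). The mitochondrial peroxiredoxin gene Prdx3 had a log2 fold change of 0.26, and Srxn1 had 0.25. Those of the abundant peroxiredoxin genes Prdx2 and Prdx6 and of Prdx5 were −0.15, −0.07 and −0.21, and their 95% intervals lay between −0.74 and 0.31. The antisense gene Trmt112 covers 19.1% of the exonic bases of Prdx5.

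NADPH, the source of electrons for both systems, comes in part from the pentose phosphate pathway. Its oxidative enzymes G6pdx and Pgd and its non-oxidative enzymes Taldo1 and Tkt are known NRF2 targets, and none of the 4 passed the test in limma, in edgeR or in DESeq2. No unadjusted limma p was under 0.05 either. Transketolase (Tkt) had 59363, 133952, 74426 and 47296 normalized counts on 2D and 79611, 61266, 62642 and 35745 on 3D collagen. The groups overlapped over most of their range, with 2D replicate 2 far above the other 7 libraries. Log2 fold changes of G6pdx, Pgd and Taldo1 were 0.20, 0.14 and −0.01, and their 95% intervals lay between −0.52 and 0.65. The antisense gene Ikbkg covers 13.6% of the exonic bases of G6pdx.

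Among the 10 detoxification and export genes Nqo1 and Gsta4 rose. NQO1 reduces quinones by a transfer of 2 electrons and is a standard readout of NRF2. Nqo1 (chromosome 8, 107388225 to 107403206) had 36.0, 74.1, 45.9 and 78.4 normalized counts on 2D and 229, 279, 113 and 183 on 3D collagen. The groups did not overlap, and the gene was low in all 8 libraries compared with most members. The log2 fold change was 1.76 (SE 0.37, 95% interval 0.93 to 2.58, limma adjusted p = 0.0274). Leaving out 2D replicate 1, 2D replicate 3, 3D replicate 1, 3D replicate 2 or 3D replicate 4 raised the limma adjusted p to 0.0525 to 0.0925.

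GSTA4 joins glutathione to 4-hydroxynonenal, a product of lipid peroxidation. Gsta4 (chromosome 9, 78182774 to 78209349) had 411, 842, 624 and 1047 normalized counts on 2D and 1633, 2388, 1244 and 1845 on 3D collagen. Each 3D value was above each 2D value, and 3D replicate 3 was the closest. Gsta4 rose by 1.33 on the log2 scale (SE 0.30, adjusted p = 0.0366 in limma). Without 2D replicate 2 or 4 it stayed past the threshold, and without any other single library the limma adjusted p was 0.0536 to 0.112. Gsta4 and Gclc both lie on chromosome 9, with 388 kb between them.

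The microsomal glutathione transferase gene Mgst1 had a log2 fold change of 1.41 with a wide interval (0.19 to 2.63, limma adjusted p = 0.156). Its values ran from 18.4 to 102 on 2D and from 76.8 to 255 on 3D collagen, and the libraries numbered 4 were the lowest of both groups. The mu-class transferase genes Gstm1 and Gstm2 lie 25.8 kb apart on chromosome 3 and are similar in sequence, so reads may be split between them. Gstm1 had 5425, 12256, 10678 and 3868 normalized counts on 2D and 16617, 13727, 11014 and 4802 on 3D collagen. Gstm2 had 1894, 8492, 3947 and 1320 on 2D and 7984, 5163, 3537 and 1189 on 3D collagen. Both genes were lowest in replicate 4 of either group, and the spread within a group was wider than the distance between the groups (log2 fold changes 0.53 and 0.26).

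The most abundant gene of this role by mean normalized count was Ephx1, the microsomal epoxide hydrolase. It had 17991, 31541, 19954 and 17203 on 2D and 19832, 13624, 14430 and 10666 on 3D collagen. Only 3D replicate 1 lay within the range of the 2D libraries. Its log2 fold change was −0.56 (95% interval −1.12 to 0.00), and that of the export pump gene Abcc1 was −0.58 (95% interval −1.17 to 0.02). The adjusted p from limma was 0.208 and 0.217. Log2 fold changes of Gstp1, Mgst2 and Mgst3, which encode further glutathione transferases, were 0.18, 0.57 and 0.01 and did not pass.

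Catalase breaks down hydrogen peroxide in peroxisomes and was the only one of 7 genes for superoxide and peroxide removal to rise. Cat (chromosome 2, 103453849 to 103485160) had 2291, 1058, 2818 and 1674 normalized counts on 2D and 4777, 4711, 4277 and 3598 on 3D collagen. The groups did not overlap. The mean rose from 1960 ± 762 to 4341 ± 542 (SD, n = 4 per group), or 1.23 on the log2 scale (SE 0.28, adjusted p = 0.0360 in limma). The call was lost without 2D replicate 4 and without each 3D library in turn, at limma adjusted p of 0.0509 to 0.115.

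Gpx3, the secreted glutathione peroxidase, had 74385, 116335, 84408 and 36831 normalized counts on 2D and 133720, 70071, 73741 and 33746 on 3D collagen. Replicate 4 was the lowest library of both groups. The means were nearly equal (77990 ± 32754 and 77820 ± 41409), and the 95% interval of the log2 fold change was −1.07 to 0.96. Intervals were narrower for the cytosolic and mitochondrial superoxide dismutase genes Sod1 (−0.30 to 0.47) and Sod2 (−0.17 to 0.51), and for the cytosolic glutathione peroxidase gene Gpx1 (−0.52 to 0.15). Gpx4, which protects membrane lipids and restrains ferroptosis, had a log2 fold change of −0.37 (95% interval −0.91 to 0.17). The extracellular superoxide dismutase gene Sod3 had between 11.0 and 106 normalized counts and a wide interval (−2.08 to 0.79).

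Haem oxygenase 1 (Hmox1), which opens the haem ring and releases iron, is repressed by BACH1 as well as induced by NRF2. Hmox1 (chromosome 8, 75093621 to 75100589) had 1840, 4656, 2609 and 3666 normalized counts on 2D and 6366, 10118, 5160 and 6035 on 3D collagen. The groups did not overlap, yet the difference of 1.15 on the log2 scale (SE 0.31) missed the threshold in limma (adjusted p = 0.0609). Limma called it with the GC trends removed (adjusted p = 0.0215) and with library size or upper-quartile factors as the scaling (0.0288 and 0.0363). DESeq2 called it too, and without 2D replicate 2 it also passed (limma adjusted p = 0.0306).

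The iron storage genes did not pass the test. Fth1, the heavy chain of ferritin, had 43815, 95104, 62797 and 68934 normalized counts on 2D and 80608, 68665, 63565 and 58153 on 3D collagen. The 3D values lay within the range of the 2D values. Its log2 fold change was 0.05 (95% interval −0.49 to 0.58) and that of the light chain gene Ftl1 was 0.01 (95% interval −0.52 to 0.55). Ferritin genes have processed copies in the genome that could share reads, and the antisense gene model Gm10252 covers 26.5% of the exonic bases of Ftl1. Osgin1, an oxidative stress-induced growth inhibitor gene, differed by 0.61 on the log2 scale (adjusted p = 0.178 in limma) and passed once GC trends had been taken out (adjusted p = 0.0237).

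For 20 of the 35 genes not called, the 95% interval lay within a 2-fold change in either direction. The other 15 had intervals that reached past it, so a change of that size remained within their range. The intervals of Txn1, Txnrd1, Prdx1, Mgst1, Hmox1 and Osgin1 covered only higher values on 3D collagen. These genes still missed the adjusted threshold. Per kilobase of exon (GENCODE M21 lengths), the highest mean levels on 2D collagen were those of Gpx3 (43017 normalized counts per kb), Ftl1 (35671), Fth1 (19505) and Sqstm1 (18044). The lowest were those of Slc7a11 (5.43), Sod3 (12.7), Mgst1 (30.6) and Nqo1 (37.7). Nfe2l2 had 529 per kb on 2D and 1380 on 3D collagen, and Keap1 392 and 353. In the order of levels per kb on 2D collagen, counted from the highest of 41, the called genes held places 28 (Cat, 750 per kb), 29 (Gsta4), 30 (Nfe2l2), 35 (Gclm), 38 (Nqo1) and 41 (Slc7a11). Gsr, in place 27, had 1078 per kb.

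**Figure D3:**
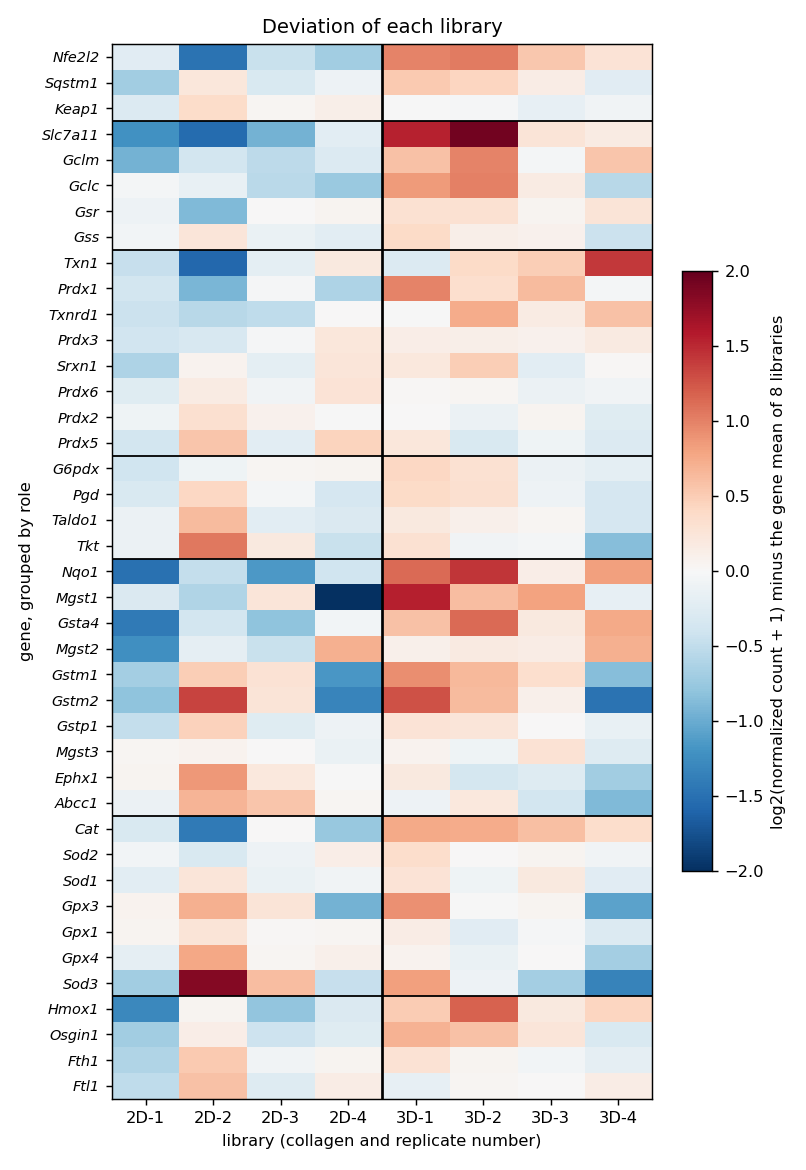
Deviation of each library from the gene's mean over all 8 libraries, on the log2(normalized count + 1) scale, for the 41 genes in rows grouped by role (black lines) and the libraries in columns, 2D on the left. Nfe2l2, Slc7a11 and Nqo1 are blue (below the mean) in every 2D column and red (above it) in every 3D column, whereas Gstm1, Gstm2 and Gpx3 are blue in both columns numbered 4.

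The libraries of a group differed in these genes. On 2D collagen, replicate 2 had the highest value of the group for 23 of the 41 genes and replicate 1 the lowest for 21. On 3D collagen, replicate 1 had the highest value for 23 genes and replicate 4 the lowest for 27. The 6 called genes followed another order, since 3D replicate 2 was the highest 3D library for 5 of them and 2D replicate 4 the highest 2D library for 4. The median deviation over the 41 genes (log2) was −0.36, 0.17, −0.08 and −0.10 in 2D replicates 1 to 4 and 0.30, 0.24, 0.06 and −0.19 in 3D replicates 1 to 4, so the groups overlapped in this median.

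The 3 libraries with the highest intestine sums were 2D replicate 2 and 3D replicates 1 and 2. Without these 3 libraries no member passed (0 higher and 0 lower, with 0 and 14 over all genes), and no member was called lower in any other subset of libraries. The log2 fold changes were then 0.86 (Nfe2l2), 1.00 (Slc7a11), 0.84 (Gclm), 1.49 (Nqo1), 1.23 (Gsta4), 0.83 (Cat) and 1.10 (Hmox1). Their groups do not overlap, so leaving libraries out could not turn their direction. The part of liver and intestine transcripts in the results was not tested further. The longest transcripts of the 6 called genes had a GC content of 40.7% to 49.2% (median 46.8%), against a median of 51.5% for the other 35 members and 49.9% for all genes tested. With the GC trends removed limma still called 6 members higher, with Hmox1 and Osgin1 in place of Slc7a11 and Gclm.

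The number of members that passed moved with single libraries. The count of higher members was 6 without 2D replicate 2, 4 without 2D replicate 4, 3 without 3D replicate 4, and 2 without 2D replicate 1, 2D replicate 3 or 3D replicate 3. It was 0 without 3D replicate 1 or 3D replicate 2. Over all genes the count of higher genes was 275 with all libraries, 221, 267, 180 and 158 without 2D replicates 1 to 4 in turn, and 58, 44, 44 and 187 without 3D replicates 1 to 4.

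Outside the 41 genes, 153 further genes were listed, for NRF2 regulation, redox enzymes, detoxification, haem and iron, oxidant production and NRF2 targets outside redox metabolism. Of the 153, 146 were in the files and 128 were tested. Of these, 2 were called higher (1.56%, against the 2.33% of all genes given above) and 0 lower, and their median log2 fold change was 0.10. Without adjustment 30 (23.4%) had a p under 0.05 and a higher value and 6 (4.69%) a lower one, against 11.7% and 12.6% of all genes tested. edgeR called 3 higher and 0 lower, against 2.72% and 3.18% of all genes, and DESeq2 called 16 higher and 2 lower, against 5.99% and 7.37%. Every 3D library exceeded every 2D library in 17 of the 128 (13.3%, against 8.05% of all genes), and in 2 every 3D library was below (against 10.4% of all genes).

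The called pair were Esd and Ddit3. Esd encodes S-formylglutathione hydrolase, an enzyme of glutathione-dependent formaldehyde removal. It had 2796, 2764, 3288 and 4978 normalized counts on 2D and 6246, 5558, 5361 and 6733 on 3D collagen, without overlap (log2 fold change 0.83, limma adjusted p = 0.0484). Its call was lost in edgeR (adjusted p = 0.0535), with the GC trends removed (limma adjusted p = 0.0703), without a filter (0.0596) and without any one library except 2D replicate 4. Ddit3, which encodes the stress transcription factor CHOP, had 307, 182, 278 and 352 on 2D and 601, 495, 638 and 536 on 3D collagen. It did not overlap between the groups either (log2 fold change 1.05, limma adjusted p = 0.0296), and the call was lost without 2D replicate 3 or any one 3D library (limma adjusted p of 0.0549 to 0.116).

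By role, 39 further genes of detoxification and export had a median log2 fold change of 0.48 with 1 called higher, and 15 of them (38.5%) had an unadjusted limma p under 0.05 and a higher value and 2 (5.13%) a lower one, against 11.7% and 12.6% of all genes. A further 19 genes, listed as NRF2 targets outside redox metabolism, had a median of 0.13 with 1 called higher. At an unadjusted limma p under 0.05, 5 of them (26.3%) were higher and 0 lower. Whether NRF2 controls these genes in MOE cells was not tested. The 12 further regulators tested, among them small MAF and BACH genes, had a median of 0.11 with none called, 2 (16.7%) higher and 1 (8.33%) lower at an unadjusted p under 0.05. Medians were −0.17 over 12 further glutathione genes, 0.08 over 14 further peroxidase, thioredoxin and repair genes and −0.25 over 11 further sources of NADPH. They were 0.20 over 13 further haem and iron genes and 0.03 over 8 oxidant-producing oxidases and related genes, with none called by limma. At an unadjusted p under 0.05 these 5 lists had 1, 1, 1, 3 and 2 higher genes (8.33%, 7.14%, 9.09%, 23.1% and 25.0%) and 1, 0, 1, 1 and 0 lower genes, beside the same 11.7% and 12.6%.

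**Figure D4:**
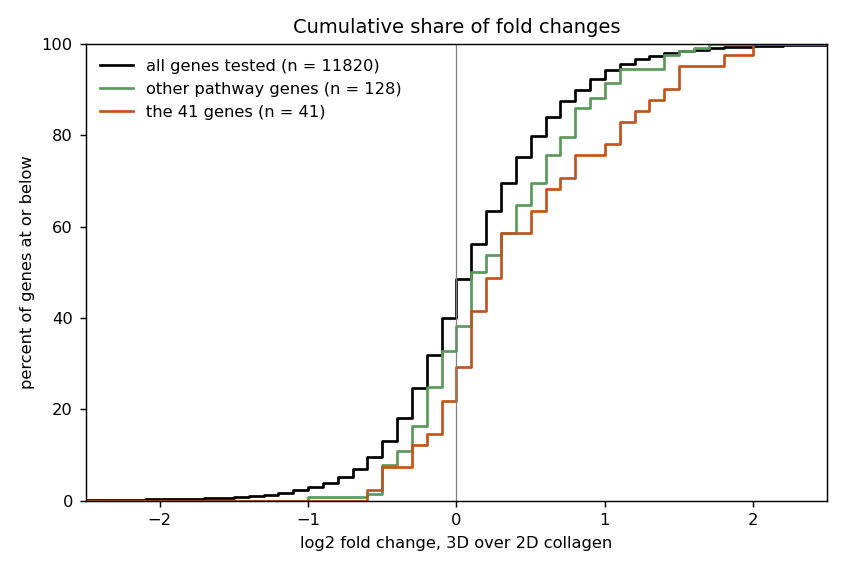
Cumulative share of genes at or below each log2 fold change (3D over 2D collagen) for all 11820 genes tested (black), 128 other genes of the pathway (green) and the 41 genes described here (orange). The share of genes at or below 0 is 29.3% for the orange curve, 38.3% for the green and 48.5% for the black.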

How the data were processed

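RNA sequencing values of 8 libraries, 4 of each collagen form, were used, grouped by their titles. The authors deposited, for each gene and library, a normalized signal. Per the submitters' processing notes HTSeq 0.6.1p1 and DESeq2 were used on mm10. The sources used here do not give the aligner, annotation, strand setting or filters. Every value (100%) was a whole multiple of the worth of 1 read in its library, within 0.001 reads, and the divisors equal median-of-ratios size factors recomputed here, with a largest difference of 3.4e-09. Reads were recovered by that division. Reads per library limit low genes most.

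The main test was limma 3.58.1 (R 4.3.3) with a trended, robust prior variance on log2(normalized count + 1), over genes with at least 10 normalized counts in at least 4 libraries. The groups were compared without covariates. Alternatives were edgeR 4.0.16 and DESeq2 1.42.0 on recovered reads, other scalings, pseudocounts (0.5 and 5) and filters (none, and 50), removal of GC trends (lowess span 30%), the replicate number as a block, and subsets of libraries with the genes tested kept. Lengths, positions and overlaps came from GENCODE M21 (GRCm38, the same build as mm10), which matched 22873 symbols (1920 by an older name). The main limma fit and the edgeR fit were tested on simulated reads with 200 genes changed. The other alternatives were not tested in this way.

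The members, gene lists and alternatives were chosen with earlier results of these data known. Values in every library are given for called members, Nfe2l2, Keap1 and the gene of each role with the highest mean normalized count. Other pathway genes are named if called. Gclc, Txnrd1, Tkt, Ephx1, Gpx3, Sqstm1 and Fth1 entered by that rule, while the library values of Prdx1, Hmox1, Gstm1 and Gstm2 were added after they were seen.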

Additional observations from a re-analysis of the deposited data

Results flagged for a closer look

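In 86 groups of 4 libraries (41 members, Esd and Ddit3 in each collagen form), 3 had a library whose gap to its nearest neighbour took up more of the group's range than a Dixon test at 95% allows. Chance gives this in about 1 in 20 such groups. Taldo1 had 15292 normalized counts in 2D replicate 2, above the other 2D libraries. Gpx1 had 10761 in the same library. Mgst2 had 599 in 3D replicate 4, above the other 3D libraries. None of these genes was called.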

How the results depend on the processing

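Sod3, Slc7a11 and Nqo1 were among the members with the lowest levels, and their log2 fold changes had SE of 0.64, 0.46 and 0.37. Among more abundant members the SE was 0.45 for Gpx3 and 0.68 for Gstm2, but 0.16 for Keap1. The part of depth in this spread was not tested. Over all genes the numbers called higher and lower were 275 and 401 in the main test. Higher genes numbered 498 with library size as the only scaling, and higher and lower genes 708 and 871 with DESeq2, 481 and 605 with the GC trends removed, and 0 and 14 in the subset that leaves out 2D replicate 2 with 3D replicates 1 and 2. Higher genes numbered 171 without both libraries numbered 4. Leaving out 1 library gave 44 to 267 higher and 104 to 370 lower genes, 0 to 6 members higher, and 0 to 3 other pathway genes higher and 0 to 1 lower. Members higher numbered 0 in that subset and 2 without both libraries numbered 4. Other pathway genes called higher numbered 10 with library size, 8 with upper-quartile factors, 16 with DESeq2, 1 without a filter, 8 with the GC trends removed, 0 in that subset, and 4 without both libraries numbered 4. Lower ones numbered 2 with DESeq2, 1 with the GC trends removed and 1 without both libraries numbered 4. The cause of these differences in number was not tested. The subsets also hold fewer libraries.

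The replicate block, which fits the replicate number, gave 663 higher and 742 lower genes, 10 members higher, and 15 other pathway genes higher and 2 lower. The replicate block with GC trends removed gave 995 and 1077 genes, 10 members higher and 1 lower (Abcc1), and 20 and 6 other pathway genes. Same-numbered libraries had correlations of −0.17, 0.37, 0.25 and 0.81 between their deviations from the group means. In this measure 3D replicates 2, 3 and 4 and 2D replicates 3 and 4 correlated best with the library of their own number. By contrast, 2D replicate 2 and 3D replicate 1 correlated best with each other (0.45), and 2D replicate 1 with 3D replicate 4 (0.16). The labels do not say whether the numbers mark a pairing, so the main test did not pair the libraries. Slc7a11 did not pass with the block (limma adjusted p = 0.0663). The members' median log2 fold change stayed above 0 under all 22 alternatives. No called value changed its sign, and for the 35 members not called the sign differed from the main test in 50 of 769 alternative values.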
